A study of Mus musculus with 15 samples.

Results

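The guanylate-binding protein (Gbp) family was described in mature mouse thymocytes through 9 of its genes, Gbp2, Gbp2b, Gbp3, Gbp4, Gbp5, Gbp6, Gbp7, Gbp8 and Gbp9. The 9 genes were taken by symbol from the 53762 genes of the deposited count table, and all 9 were among the 16550 genes that passed the filter on low counts. Gbp2b passed it only through the mutant libraries, because it had almost no reads in wild-type cells. Gene expression was measured by RNA sequencing of sorted cells from mixed bone marrow chimeras, in 15 libraries, 3 in each of 5 groups, all labelled C57BL/6. The first group was CD4+CD8+ cells of CD45.2+ Thpok fl/fl Runx3 fl/dYFP Cd4-Cre+ donors that carried Thpok-RKF (called RKF+ CD4+CD8+ cells). The second was CD4+CD8+ cells of the same genotype without Thpok-RKF (RKF- CD4+CD8+), and the third was CD8+ single-positive cells of that genotype without it (RKF- CD8 SP). These 3 mutant groups share the Thpok and Runx3 alleles and the Cre, whose Cd4 sequences drive it in developing T cells, and all came from B2m-/- hosts, which lack normal MHC class I. The references were CD45.1+CD45.2+ wild-type competitor cells, as CD4+ single-positive cells from B2m-/- hosts (WT CD4 SP) and as CD8+ single-positive cells from I-Ab-/- hosts, which lack MHC class II (WT CD8 SP). Every group was sorted as CD44lo TCRb hi CD24lo CD69lo. Thpok, encoded by Zbtb7b, is the transcription factor that commits thymocytes to the CD4 lineage, and Runx3 acts for the CD8 lineage. Thpok-RKF is by its name a form of Thpok, and the labels do not spell out its change. The labels do not say how many animals gave the libraries, so p-values measure the spread between libraries, which may be partly technical. Mutant and wild-type cells came from different donors, so genotype and donor cannot be told apart in any comparison between them. Against WT CD8 SP cells the hosts differ as well.

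Gbps are large GTPases whose genes are switched on mainly by interferon gamma, and also by type I interferon, in part through the IRF1 transcription factor. The proteins assemble on membranes of vacuoles and bacteria inside the cell, help to break them open, and feed inflammasome activation in macrophages. In the mouse, Gbp2b (formerly Gbp1), Gbp2, Gbp3, Gbp5 and Gbp7 lie side by side on chromosome 3, and Gbp4, Gbp6, Gbp8 and Gbp9 lie in a second cluster on another chromosome together with Gbp10. Gbp2b is known for an inducibility that differs between inbred mouse strains.

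Libraries held 37311823 to 48607260 reads assigned to genes. Levels are given in CPM, counts scaled to the size and composition of each library. Differences are log2 fold changes ± SE from edgeR's quasi-likelihood test. Its p-values were adjusted over all 16550 genes by the Benjamini-Hochberg method, and an adjusted p below 0.05 was taken as passing the test. Zbtb7b had 768 to 823 CPM in RKF+ CD4+CD8+ libraries, 1.67 to 2.95 CPM in both RKF- groups, 27.4 to 79.2 CPM in WT CD4 SP and 0.0933 to 0.376 CPM in WT CD8 SP libraries. Runx3 had 247 to 361 CPM in the 9 mutant libraries, 23.1 to 32.4 CPM in WT CD4 SP and 194 to 220.2 CPM in WT CD8 SP libraries, and a count over the whole gene does not check a deleted part. Cd4 had 1036 to 1147 CPM in RKF+ CD4+CD8+, 214 to 397 CPM in RKF- CD4+CD8+, 17.4 to 41.5 CPM in RKF- CD8 SP, 822 to 969.6 CPM in WT CD4 SP and 0.803 to 3.86 CPM in WT CD8 SP libraries, and Cd8a had at least 748 CPM in all groups but WT CD4 SP (2.13 to 7.68 CPM). The summed level of 8 T cell markers was between 7230.1 and 13460.2 CPM in every library. In these bulk samples, fewer cells of a type and less RNA per cell cannot be told apart. The 5 libraries numbered 1 had the highest share of reads outside annotated genes in their groups, and calls that turned on leaving them out are given with the gene or with the counts over the family.

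Gbp2b was read in all 9 mutant libraries and was all but silent in the 6 wild-type libraries. It had 32.9, 46.7 and 48.2 CPM in RKF+ CD4+CD8+ cells, 54.8, 66.8 and 63.8 CPM in RKF- CD4+CD8+ cells and 52.6, 58.2 and 68.2 CPM in RKF- CD8 SP cells. Behind these levels stood 1554, 2160 and 2036 reads in RKF+ CD4+CD8+ libraries, 2695, 3013 and 2871 reads in RKF- CD4+CD8+ libraries and 2342, 2694 and 3057 reads in RKF- CD8 SP libraries. WT CD4 SP libraries had 0 reads of Gbp2b in all 3 replicates, and WT CD8 SP libraries had 1, 0 and 0 reads. The mutant and wild-type values therefore did not overlap. Myeloid and B cells also express Gbp genes, so their markers were summed. The 12 myeloid and dendritic cell markers, mostly Cst3, summed to 55.5 to 109 CPM in mutant and 64.1 to 110 CPM in wild-type libraries, with the macrophage marker Adgre1 at no more than 4.44 CPM. Lyz2, another of these markers, was uneven. It had 24.5 CPM in RKF+ CD4+CD8+ replicate 1, 28.4 CPM in WT CD4 SP replicate 1 and at most 4.43 CPM in every other library. The 8 B cell markers, mostly Ighm, summed to 363 to 993 CPM in mutant and 544 to 1190 CPM in wild-type libraries, with Ms4a1 at 0 in all 15. Cd79a was read in every library, at 1.07 to 5.84 CPM, with the highest group mean in RKF+ CD4+CD8+ cells (5.05 CPM). The part of such cells in the level of Gbp2b was not tested.

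Against WT CD4 SP cells, where a count of 0 allows up to 0.0221 CPM (3 reads over the 3 libraries, counting error only), Gbp2b was at least 1917-fold higher in RKF+ CD4+CD8+ cells (edgeR adjusted p = 1.49e-09). It was at least 2789-fold higher in RKF- CD4+CD8+ cells (adjusted p = 1.98e-09) and at least 2701-fold higher in RKF- CD8 SP cells (adjusted p = 1.04e-09). Against WT CD8 SP cells, with 1 read in all, the ratio was 5097 (exact binomial 95% interval 914.4 to 201300) in RKF+ CD4+CD8+ cells, 7413 (1330 to 292800) in RKF- CD4+CD8+ cells and 7180 (1288 to 283600) in RKF- CD8 SP cells. The highest adjusted p of these 3 comparisons in edgeR was 4.72e-09, in RKF+ CD4+CD8+ cells. All 6 comparisons of a mutant with a wild-type group kept the call in each of 15 alternative analyses. With 0 or 1 reads in a wild-type group this outcome was all but fixed, so it adds no support to the read counts.

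The promoter windows of Gbp2b and of 3 neighbours in its cluster are shown, because these genes lie side by side and yet had different patterns in the same cells. Each runs from 250 bases before to 50 bases after a RefSeq transcription start on the + strand of GRCm38.p6. Capitals mark matches to an interferon-stimulated response element core (ISRE, GAAANNGAAA on either strand, so also TTTCNNTTTC) or to a gamma-activated site (GAS, TTCNNNGAA). The windows are Gbp2b at chr3:142594597-142594896, Gbp2 at chr3:142620413-142620712, the first of 2 windows of Gbp3 at chr3:142559794-142560093, and Gbp5 at chr3:142496684-142496983.
Gbp2b: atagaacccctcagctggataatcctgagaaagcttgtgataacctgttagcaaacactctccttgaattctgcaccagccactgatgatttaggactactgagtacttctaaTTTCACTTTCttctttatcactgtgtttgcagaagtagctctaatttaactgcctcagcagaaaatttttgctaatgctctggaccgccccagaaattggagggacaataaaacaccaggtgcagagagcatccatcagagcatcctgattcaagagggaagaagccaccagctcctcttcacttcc
Gbp2: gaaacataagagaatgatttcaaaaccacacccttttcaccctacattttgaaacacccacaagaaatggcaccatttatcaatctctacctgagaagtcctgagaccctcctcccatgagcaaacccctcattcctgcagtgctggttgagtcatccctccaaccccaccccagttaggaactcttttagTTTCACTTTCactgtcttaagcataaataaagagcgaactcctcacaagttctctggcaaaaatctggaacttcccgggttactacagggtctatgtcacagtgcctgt
Gbp3: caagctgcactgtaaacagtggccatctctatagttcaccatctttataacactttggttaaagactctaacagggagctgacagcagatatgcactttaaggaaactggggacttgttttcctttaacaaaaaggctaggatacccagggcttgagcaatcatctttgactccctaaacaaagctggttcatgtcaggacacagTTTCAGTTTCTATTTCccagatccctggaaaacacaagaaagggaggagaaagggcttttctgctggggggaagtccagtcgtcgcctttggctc
Gbp5: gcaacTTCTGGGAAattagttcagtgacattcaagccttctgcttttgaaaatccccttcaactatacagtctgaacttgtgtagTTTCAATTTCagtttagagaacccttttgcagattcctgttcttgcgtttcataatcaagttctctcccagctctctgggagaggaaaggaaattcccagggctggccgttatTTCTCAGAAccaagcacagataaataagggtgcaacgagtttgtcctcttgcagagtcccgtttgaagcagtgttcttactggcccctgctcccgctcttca
Gbp2b and Gbp2 held the same 10 bases, TTTCACTTTC, from base 114 and from base 192 of their windows, counted from the 5′ end. Gbp3 held 2 overlapping ISRE cores, from bases 206 and 212, and Gbp5 held an ISRE core from base 86 and 2 GAS matches, from bases 6 and 199. RefSeq windows were matched for 5 of the 9 genes, 6 windows in all, and 5 of the 6 held an ISRE core, against 3.44% of all 32851 windows of the same length. A GAS match was found in 2 of the 6, against 8.30% of all windows, and the letters TGTGGT or ACCACA, the core that RUNX factors bind, in 1 of the 6, that of Gbp2, against 16.8% of all windows. A match is a description of the sequence and not a bound site.

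No difference in Gbp2b between mutant groups passed the test. RKF+ CD4+CD8+ cells averaged 42.6 ± 8.45 CPM and RKF- CD4+CD8+ cells 61.8 ± 6.21 CPM (SD, n = 3 each), and the 2 groups did not overlap. The log2 fold change was -0.54 ± 0.19 (edgeR adjusted p = 0.224, unadjusted 0.0148). Over the alternatives it lay between -0.63 and -0.37 and was called in 0 of 15. RKF- CD8 SP cells averaged 59.7 ± 7.88 CPM. The log2 fold change was -0.49 ± 0.19 for RKF+ CD4+CD8+ over RKF- CD8 SP cells (adjusted p = 0.192) and 0.05 ± 0.19 for RKF- CD4+CD8+ over RKF- CD8 SP cells (adjusted p = 0.979).

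**Figure D1:**
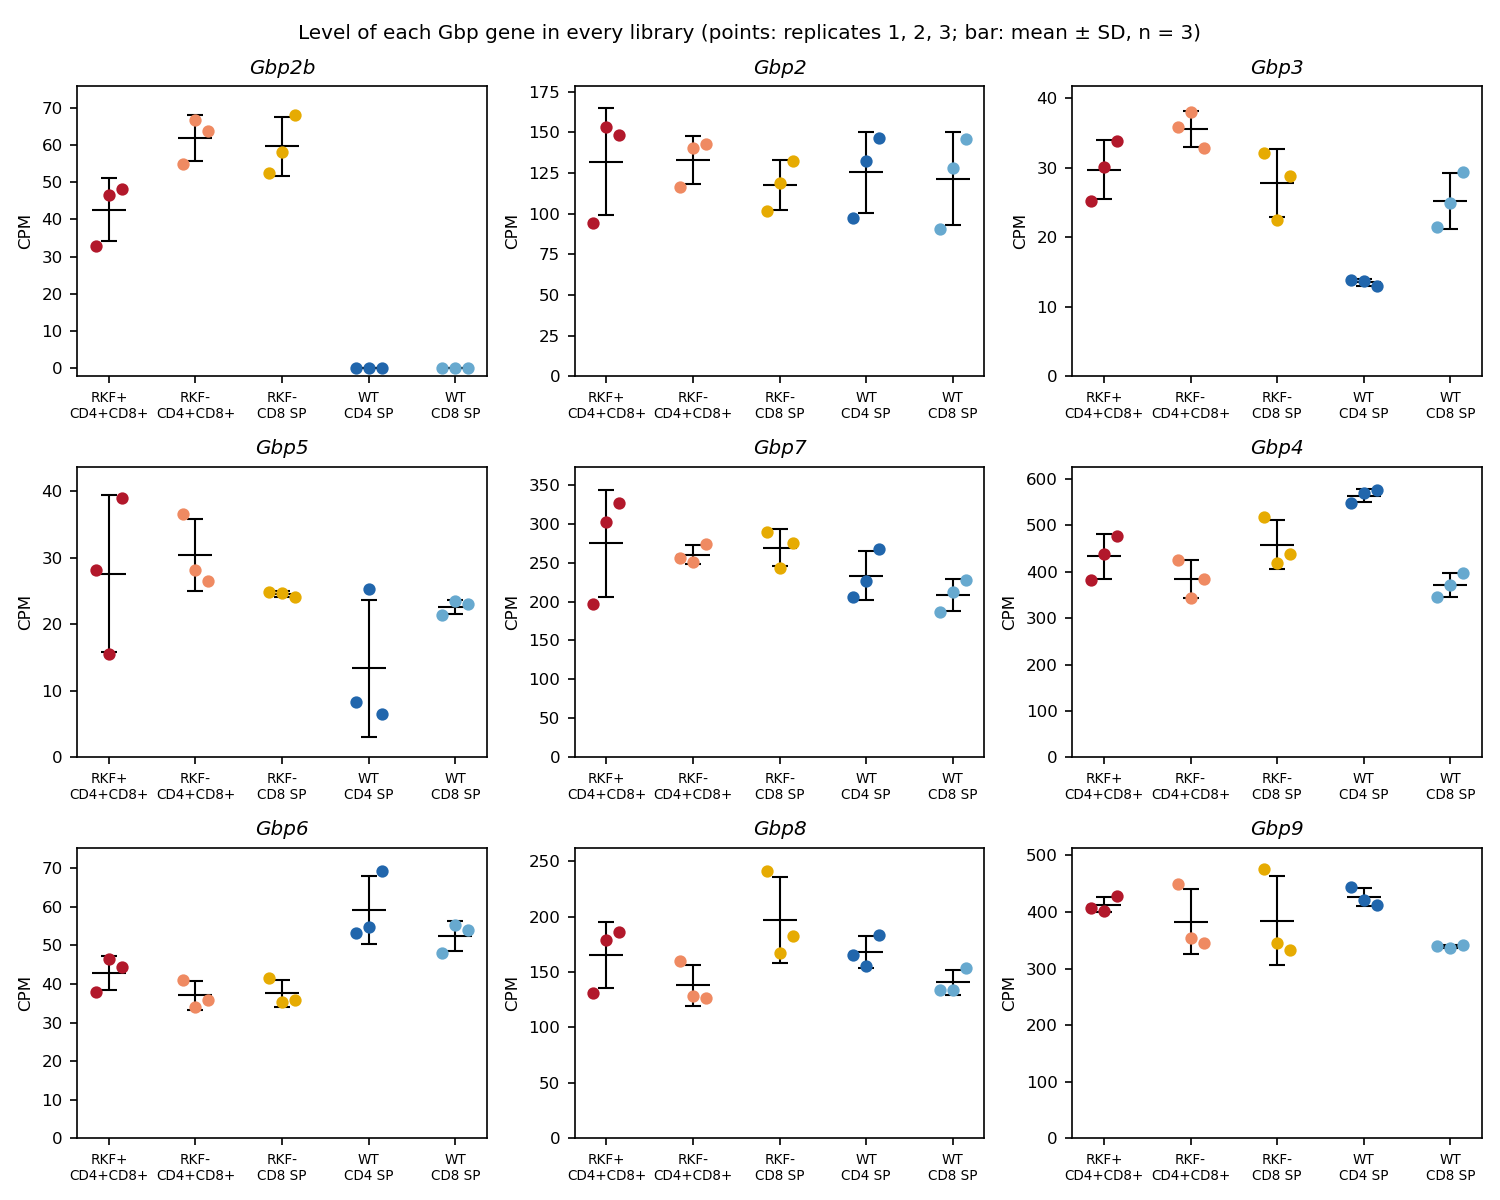
Level of each of the 9 Gbp genes in CPM (y axis, linear, separate scale per gene) in every library of the 5 groups (x axis), with points for replicates 1, 2 and 3 from left to right and bars for the mean ± SD (n = 3). Gbp2b lies at 32.9 to 68.2 CPM in the mutant libraries and at or next to 0 in the wild-type libraries, while the other 8 genes were read in all 15 libraries.

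Gbp2, the gene next to Gbp2b and its closest relative, was read in all 5 groups. The longest open reading frames of the 2 genes were 82.5% identical over their aligned bases. No stretch of 101 bases, the read length, in either transcript occurred in another annotated gene. Gbp2 had 94.2, 153 and 149 CPM in RKF+ CD4+CD8+ cells, 116, 140.3 and 143 CPM in RKF- CD4+CD8+ cells and 102, 119 and 132 CPM in RKF- CD8 SP cells. The wild-type libraries had 97.6, 132 and 146 CPM in CD4 SP and 90.5, 128 and 146 CPM in CD8 SP cells, so the groups overlapped, and the library numbered 1 was the lowest in each of the 5 groups. Gbp2 passed the test in none of the 10 pairs of groups. Its highest group, RKF- CD4+CD8+, set against its lowest, RKF- CD8 SP, gave an adjusted p of 0.9.

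Gbp3, which lies on the other side of Gbp2b, was lowest in WT CD4 SP cells. Its levels were 25.3, 30.05 and 33.8 CPM in RKF+ CD4+CD8+ cells, 35.8, 38.0 and 32.8 CPM in RKF- CD4+CD8+ cells and 32.0, 22.4 and 28.7 CPM in RKF- CD8 SP cells. WT CD4 SP cells had 13.9, 13.7 and 12.97 CPM, below all 12 other libraries, and WT CD8 SP cells had 21.4, 25.0 and 29.4 CPM. Gbp3 rose against WT CD4 SP cells in all 3 mutant groups, by a log2 fold change of 1.14 ± 0.17 in RKF+ CD4+CD8+ cells (adjusted p = 0.000561), 1.39 ± 0.17 in RKF- CD4+CD8+ cells (adjusted p = 0.000101) and 1.04 ± 0.17 in RKF- CD8 SP cells (adjusted p = 0.000687). These 3 comparisons share the WT CD4 SP libraries. WT CD4 SP cells were also below WT CD8 SP cells (-0.90 ± 0.17, adjusted p = 0.00183), the only neighbouring pair in the order of group levels of the 8 genes other than Gbp2b that passed the test. Each of these 4 calls held in all 15 alternatives. Against WT CD8 SP cells the log2 fold change was 0.23 ± 0.17 in RKF+ CD4+CD8+ cells (adjusted p = 0.46), 0.49 ± 0.17 in RKF- CD4+CD8+ cells (adjusted p = 0.0684) and 0.13 ± 0.17 in RKF- CD8 SP cells (adjusted p = 0.658). The RKF- CD4+CD8+ libraries did not overlap those of WT CD8 SP, and their difference was called in 4 of 15 alternatives.

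Gbp5, which can bind and promote the NLRP3 inflammasome in mouse macrophages, had the same order of means but wide scatter. It had 28.2, 15.6 and 39.0 CPM in RKF+ CD4+CD8+ cells, 36.5, 28.1 and 26.5 CPM in RKF- CD4+CD8+ cells and 24.9, 24.7 and 24.1 CPM in RKF- CD8 SP cells. The wild-type values were 8.36, 25.3 and 6.56 CPM in CD4 SP and 21.4, 23.4 and 23.0 CPM in CD8 SP cells, and replicate 2 of WT CD4 SP stood apart from the other 2. With all libraries no pair of groups passed the test, and RKF- CD4+CD8+ against WT CD4 SP came nearest (1.18 ± 0.41, adjusted p = 0.0602). Without WT CD4 SP replicate 2 the log2 fold change against WT CD4 SP cells was 1.88 in RKF+ CD4+CD8+ cells (adjusted p = 0.00199), 2.01 in RKF- CD4+CD8+ cells (adjusted p = 0.00128) and 1.70 in RKF- CD8 SP cells (adjusted p = 0.00234), with -1.58 for WT CD4 SP over WT CD8 SP cells (adjusted p = 0.00337). Over its 15 alternatives Gbp5 was called against WT CD4 SP cells in 2 for RKF+ CD4+CD8+, in 5 for RKF- CD4+CD8+ and in 4 for RKF- CD8 SP cells.

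Gbp7, linked in the mouse to defence against bacteria in phagocytes, had 196, 302 and 326 CPM in RKF+ CD4+CD8+ cells, 256, 250.1 and 274 CPM in RKF- CD4+CD8+ cells and 289.8, 243 and 275 CPM in RKF- CD8 SP cells. WT CD4 SP cells had 206, 226 and 268 CPM and WT CD8 SP cells 186, 212 and 227 CPM, with RKF+ CD4+CD8+ replicate 1 among the lowest libraries. No pair of groups passed the test, and RKF+ CD4+CD8+ against WT CD8 SP cells gave 0.40 ± 0.16 (adjusted p = 0.147), or 0.62 without that library (adjusted p = 0.00376). Without all 5 libraries numbered 1 it gave 0.55 (adjusted p = 0.01). Of the 101-base stretches of its transcript 10.2% also occurred in Gbp3 or in a processed pseudogene that had 0 reads in all libraries. The pseudogene overlaps 637 exon bases of Gbp7 on the same strand, so its 0 reads do not show that it was silent.

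None of the 3 protein-coding genes on each side of this cluster had the pattern of Gbp2b. Before it lie Unc5c and Bmpr1b, which were at or next to 0 in every group, and Pdlim5, a PDZ and LIM domain gene, with group means of 52.9 to 71.3 CPM. After it lie Kyat3, a kynurenine aminotransferase gene (3.05 to 5.10 CPM), Gtf2b, which encodes the general transcription factor TFIIB (54.9 to 74.0 CPM), and Pkn2, a protein kinase gene (77.1 to 92.6 CPM). In the 6 comparisons drawn below for the family, 1 difference passed the test among the 4 of these genes that passed the filter on low counts, that of Gtf2b in RKF- CD4+CD8+ cells (74.0 ± 2.50 CPM) over WT CD4 SP cells (54.9 ± 6.66 CPM), by 0.43 ± 0.11 (adjusted p = 0.0173).

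**Figure D2:**
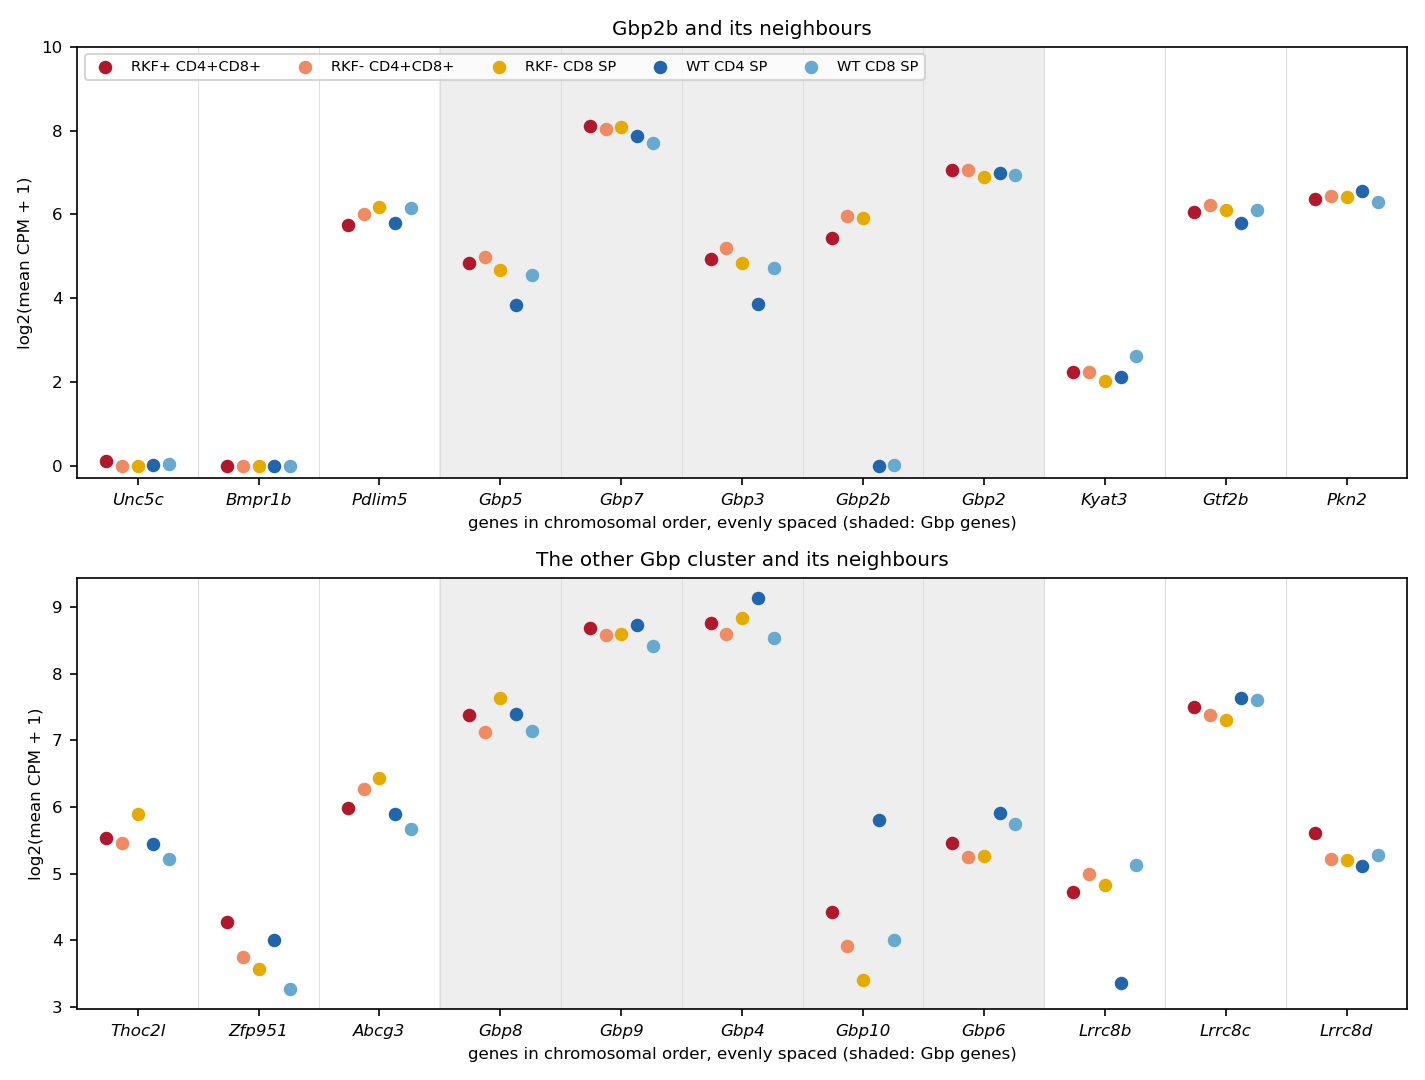
Mean level of each gene as log2(mean CPM + 1) (y axis) for the genes of both Gbp clusters, shaded, and the 3 protein-coding genes on each side, in chromosomal order and evenly spaced (x axis), with a point per group. Gbp2b is the gene of the upper panel that is high in the 3 mutant groups and at 0 in the wild-type groups, with Gbp3 and Gbp2 on either side read in all groups. In the lower panel WT CD4 SP cells are highest in Gbp10 and lowest in Lrrc8b.

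In the second cluster Gbp4 was highest in WT CD4 SP cells. It had 383, 439 and 478 CPM in RKF+ CD4+CD8+ cells, 426, 343 and 385 CPM in RKF- CD4+CD8+ cells and 518, 418 and 438 CPM in RKF- CD8 SP cells. The wild-type libraries had 548, 569 and 576 CPM in CD4 SP cells and 346, 371 and 397 CPM in CD8 SP cells. All 3 WT CD4 SP libraries lay above the 12 others. Gbp4 fell in RKF- CD4+CD8+ cells against WT CD4 SP cells (-0.55 ± 0.11, adjusted p = 0.00576), and WT CD4 SP cells were above WT CD8 SP cells (0.60 ± 0.11, adjusted p = 0.00216). Both calls held in all 15 alternatives. In RKF+ CD4+CD8+ cells the difference from WT CD4 SP cells was -0.38 ± 0.11 (adjusted p = 0.0604) and in RKF- CD8 SP cells -0.30 ± 0.11 (adjusted p = 0.0868), neither of them past the threshold. The first was called in 5 of 15 alternatives, and the second without the libraries numbered 1 (-0.42, adjusted p = 0.00853) and without RKF- CD8 SP replicate 1 (-0.41, adjusted p = 0.0395). RKF- CD8 SP over WT CD8 SP cells gave 0.30 ± 0.11 (adjusted p = 0.0832), called in 5 of 15 alternatives, and these groups did not overlap.

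Gbp6 was lower in the mutant than in the wild-type libraries. It had 37.8, 46.4 and 44.5 CPM in RKF+ CD4+CD8+ cells, 41.2, 34.1 and 35.9 CPM in RKF- CD4+CD8+ cells and 41.5, 35.2 and 35.9 CPM in RKF- CD8 SP cells. WT CD4 SP cells had 53.3, 54.7 and 69.2 CPM and WT CD8 SP cells 48.0, 55.3 and 54.0 CPM, so that every mutant library lay below every wild-type library. Against WT CD4 SP cells it fell by 0.67 ± 0.14 on the log2 scale in RKF- CD4+CD8+ cells (adjusted p = 0.00552) and by 0.65 ± 0.14 in RKF- CD8 SP cells (adjusted p = 0.00515). Against WT CD8 SP cells it fell by 0.50 ± 0.14 in RKF- CD4+CD8+ cells (adjusted p = 0.0292) and by 0.48 ± 0.14 in RKF- CD8 SP cells (adjusted p = 0.0254). Each of the 2 calls against WT CD8 SP cells held in 10 of 15 alternatives, and was lost without WT CD8 SP replicate 2 (adjusted p = 0.129 in RKF- CD4+CD8+ and 0.115 in RKF- CD8 SP cells), without WT CD8 SP replicate 3, without replicate 2 or 3 of the mutant group, and with no filter on low counts. The RKF+ CD4+CD8+ difference was -0.46 ± 0.14 from WT CD4 SP cells (adjusted p = 0.0602) and -0.29 ± 0.14 from WT CD8 SP cells (adjusted p = 0.228), neither past the threshold. Counts of Gbp6 are uncertain, because 82.8% of the 101-base stretches of its transcript occur in other genes as well, which include Gbp4, Gbp8, Gbp9, Gbp10 and Gbp11. Gm43302, a protein-coding gene with 0 reads in all libraries, overlaps 1726 exon bases of Gbp6 (29.0%) on the same strand. Reads in that part may have been assigned to neither gene.

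With all libraries Gbp8 passed the test in 1 pair of groups and Gbp9 in none. Gbp8 had 131, 179 and 186 CPM in RKF+ CD4+CD8+ cells, 159.5, 129 and 126 CPM in RKF- CD4+CD8+ cells and 241, 167 and 183 CPM in RKF- CD8 SP cells. In the wild-type libraries it had 165, 155 and 183 CPM in CD4 SP and 134, 134 and 154 CPM in CD8 SP cells, and RKF- CD8 SP replicate 1 was the highest of the 15 libraries. It rose in RKF- CD8 SP against WT CD8 SP cells (0.49 ± 0.16, adjusted p = 0.0483), a call that held in 9 of 15 alternatives. It was lost without the 5 libraries numbered 1 (0.31, adjusted p = 0.0809), without RKF- CD8 SP replicate 1 (0.33, adjusted p = 0.206), without RKF- CD8 SP replicate 3 or without any 1 of the 3 WT CD8 SP libraries. Without the libraries numbered 1 Gbp8 was called lower in RKF- CD4+CD8+ than in WT CD4 SP cells (-0.41, adjusted p = 0.0302), against -0.28 ± 0.16 (adjusted p = 0.242) with them. Gbp9 had 408, 402 and 427 CPM in RKF+ CD4+CD8+ cells, 449, 354 and 345 CPM in RKF- CD4+CD8+ cells and 476, 346 and 333 CPM in RKF- CD8 SP cells, while WT CD4 SP cells had 444, 421 and 413 CPM and WT CD8 SP cells 339, 336 and 343 CPM. In both RKF- groups replicate 1 was above the other 2 replicates and above all wild-type libraries. Without the libraries numbered 1, Gbp9 was called in 5 pairs of groups. It was then lower in RKF- CD4+CD8+ (-0.25, adjusted p = 0.0392) and RKF- CD8 SP (-0.30, adjusted p = 0.0186) than in WT CD4 SP cells, against -0.15 ± 0.13 and -0.15 ± 0.13 with all libraries. It was higher in RKF+ CD4+CD8+ than in RKF- CD8 SP cells (0.30, adjusted p = 0.0309, against 0.10 ± 0.13 with all libraries) and than in WT CD8 SP cells (0.32, adjusted p = 0.0186, against 0.28 ± 0.13), and higher in WT CD4 SP than in WT CD8 SP cells (0.33, adjusted p = 0.0141, against 0.33 ± 0.13). The difference between the wild-type groups was called in 4 of 15 alternatives, among them DESeq2 with all libraries (0.35, adjusted p = 0.0421). The open reading frames of Gbp4, Gbp6, Gbp8 and Gbp9 were 89.7% to 92.9% identical to one another, against 63.2% to 71.0% between Gbp2b and the Gbp genes other than Gbp2.

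Gbp10, the further relative in this cluster, had larger log2 fold changes against WT CD4 SP cells than Gbp4, Gbp6, Gbp8 or Gbp9. Counts of Gbp10 and Gbp11 may be uncertain, because both share 101-base stretches with Gbp6, and their own shared part was not computed. Its levels were 15.8, 21.0 and 24.8 CPM in RKF+ CD4+CD8+ cells, 21.7, 8.31 and 12.5 CPM in RKF- CD4+CD8+ cells and 13.2, 6.22 and 9.25 CPM in RKF- CD8 SP cells. WT CD4 SP libraries had 49.2, 59.6 and 55.8 CPM and WT CD8 SP libraries 9.71, 15.4 and 19.96 CPM. The 3 WT CD4 SP libraries were above all others, and the log2 fold change against them was -1.42 ± 0.35 in RKF+ CD4+CD8+ cells (adjusted p = 0.0222), -1.95 ± 0.36 in RKF- CD4+CD8+ cells (adjusted p = 0.00244) and -2.52 ± 0.36 in RKF- CD8 SP cells (adjusted p = 0.000261). Gbp11, another relative, rose in RKF- CD8 SP cells (14.8 ± 4.54 CPM) against WT CD8 SP cells (2.63 ± 0.247 CPM), by 2.49 ± 0.31 (adjusted p = 4.71e-05). Of the genes beside the cluster, Lrrc8b, a volume-regulated anion channel subunit, rose against WT CD4 SP cells in all 3 mutant groups, by 1.46 ± 0.25 in RKF+ CD4+CD8+ cells (adjusted p = 0.00173), 1.74 ± 0.25 in RKF- CD4+CD8+ cells (adjusted p = 0.00044) and 1.57 ± 0.25 in RKF- CD8 SP cells (adjusted p = 0.000609). WT CD4 SP cells (9.26 ± 3.64 CPM) were also below WT CD8 SP cells (34.0 ± 5.72 CPM) in Lrrc8b (log2 fold change -1.88 ± 0.25, adjusted p = 0.000136), and RKF- CD8 SP over WT CD8 SP cells gave -0.31 ± 0.24 (adjusted p = 0.451). Thoc2l and Abcg3 on the other side rose in RKF- CD8 SP cells, by 0.69 ± 0.14 (adjusted p = 0.00213) and 0.79 ± 0.17 (adjusted p = 0.00506) against WT CD8 SP cells.

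Per kilobase of exon, with all annotated exons of a gene merged, Gbp9 stood highest in every group. The order of the genes depends on the length used. Merged exons held 7494 bases for Gbp4 and 5954 for Gbp6, but the transcripts searched for shared stretches held 4538 and 2604. Group means were 65.6 to 82.3 CPM per kilobase for Gbp9, 49.5 to 75.3 for Gbp4, 40.1 to 57.2 for Gbp8, 46.7 to 52.9 for Gbp2 and 37.1 to 48.9 for Gbp7. On merged exons Gbp2b followed with 15.1 to 21.9 CPM per kilobase in the 3 mutant groups, above Gbp6 (6.22 to 9.92), Gbp3 (4.14 to 10.9) and Gbp5 (2.02 to 4.58). In the mutant cells the level of Gbp2b thus lay inside the range of the family. When the 5 groups were ordered by level for each gene, 2 of the 36 neighbouring pairs passed the test, the step of Gbp2b between RKF+ CD4+CD8+ and WT CD8 SP cells and the step of Gbp3 between WT CD4 SP cells and those of WT CD8 SP.

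Counted over the family, between 0 and 4 of the 9 genes passed the test in a comparison. In RKF+ against RKF- CD4+CD8+ cells 0 of 9 were called by edgeR, where 0.961% of all genes tested were called. For 1, Gbp2b, the fit gave an unadjusted p under 0.05, and DESeq2 and limma called 0. Without the 5 libraries numbered 1, 2 genes were called, Gbp4 (log2 fold change 0.33, adjusted p = 0.0407) and Gbp8 (0.51, adjusted p = 0.0211). In RKF- CD4+CD8+ against RKF- CD8 SP cells 0 were called (2.44% of all genes). Of the 9, 3 (Gbp3, Gbp4 and Gbp8) had an unadjusted p under 0.05, DESeq2 called 1 and limma called 0. Over all genes DESeq2 called 782 there and edgeR 403. In RKF+ CD4+CD8+ against RKF- CD8 SP cells 0 were called (5.52% of all genes), with an unadjusted p under 0.05 for 1, Gbp2b, and 0 calls by DESeq2 or limma.

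Against WT CD4 SP cells, Gbp2b and Gbp3 rose and none fell in RKF+ CD4+CD8+ cells (2 of 9, against 7.26% of all genes). The same 2 rose while Gbp4 and Gbp6 fell in RKF- CD4+CD8+ cells (4 of 9, against 17.6%), and the same 2 rose while Gbp6 fell in RKF- CD8 SP cells (3 of 9, against 17.7%). Against WT CD8 SP cells, Gbp2b and Gbp8 rose and Gbp6 fell in RKF- CD8 SP cells (3 of 9, against 18.4%), Gbp2b rose and Gbp6 fell in RKF- CD4+CD8+ cells (2 of 9, against 12.1%), and Gbp2b alone rose in RKF+ CD4+CD8+ cells (1 of 9, against 11.1%). Gbp2b passed the filter on low counts only through the mutant libraries, so its call in each of these comparisons was all but fixed. Only the other genes named can be set beside the share of all genes. Between the wild-type groups Gbp4 was higher and Gbp3 lower in CD4 SP than in CD8 SP cells (2 of 9, against 18.0%). The counts depended on the tool and the libraries. In RKF+ CD4+CD8+ against WT CD4 SP cells DESeq2 and limma each called 4, in RKF- CD8 SP against WT CD8 SP cells limma called 5, and without the 5 libraries numbered 1 edgeR called 5 in RKF- CD8 SP against WT CD4 SP cells and 3 in RKF+ CD4+CD8+ against WT CD8 SP cells. The percentages above are those of the main edgeR fit. DESeq2 also called more of all genes in RKF+ CD4+CD8+ against WT CD4 SP cells, 1946 of 16550, where edgeR called 1202. Both wild-type groups and several mutant comparisons share libraries, so these counts are not independent of one another. With 9 genes, a share near that of all genes is no result about the family. The median log2 fold change of the 9 genes, with Gbp2b at its bound, was 0.07 in RKF+ CD4+CD8+, 0.09 in RKF- CD4+CD8+ and 0.21 in RKF- CD8 SP cells against WT CD4 SP cells, beside 0.01, 0.01 and -0.0041 over all genes tested in the same 3 comparisons.

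**Figure D3:**
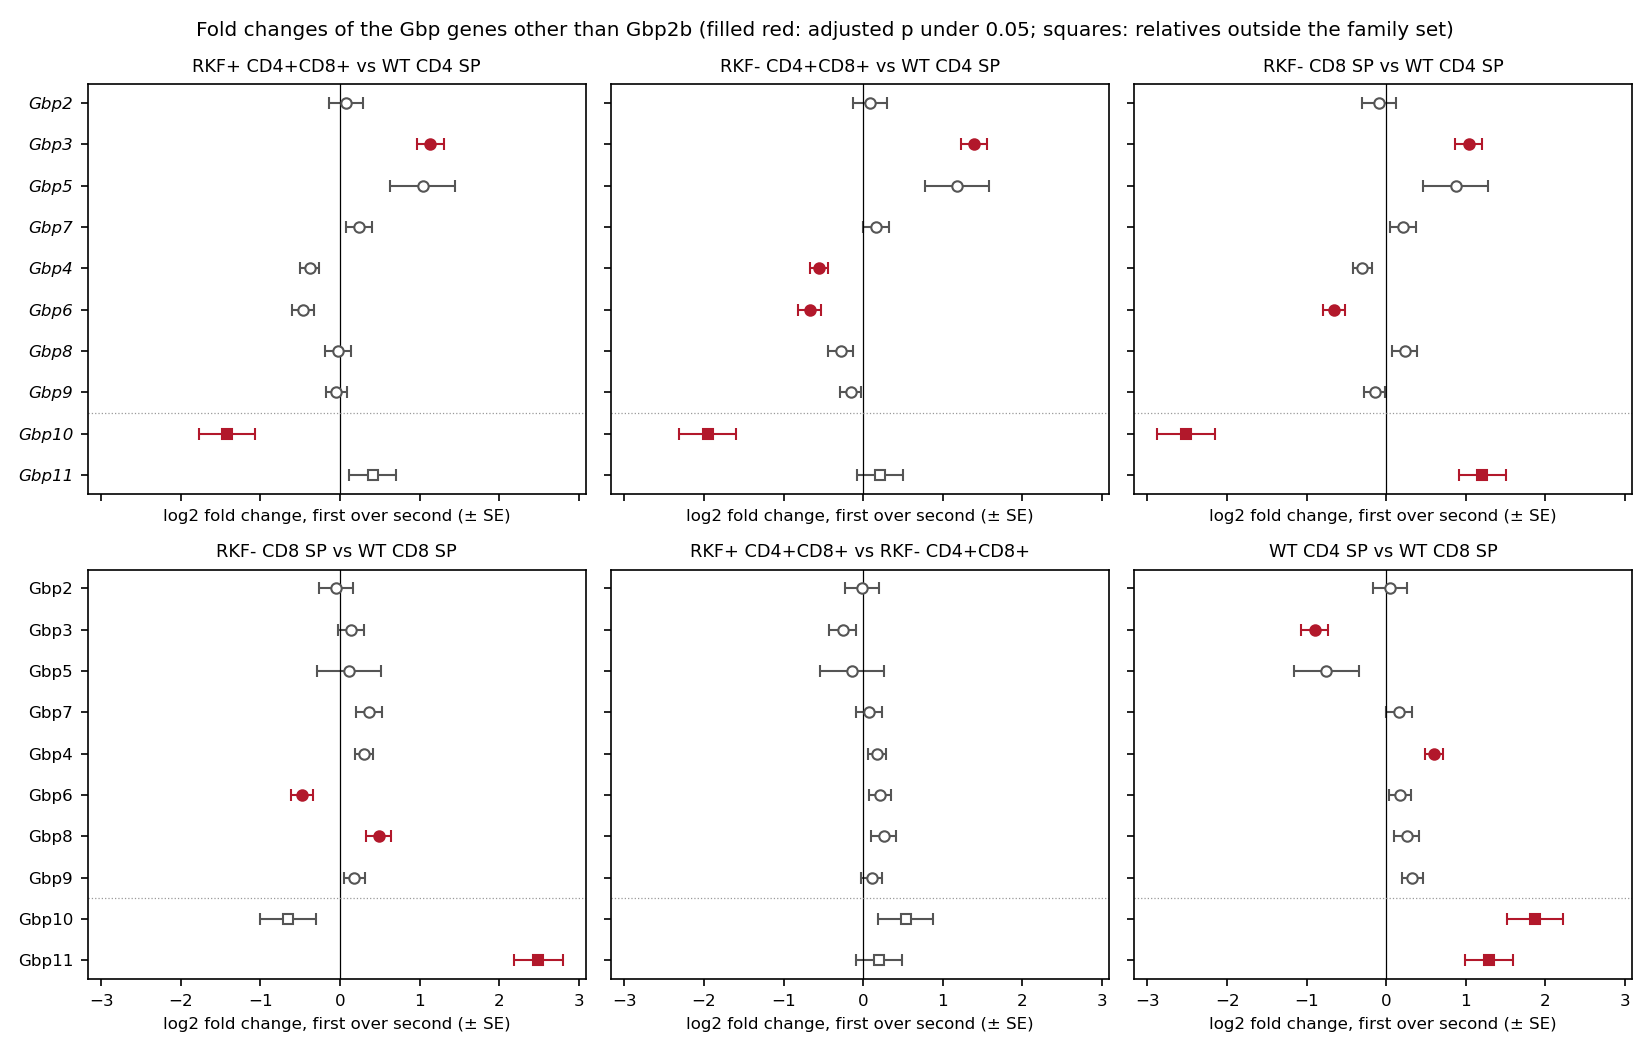
Log2 fold change ± SE (x axis) of the 8 Gbp genes other than Gbp2b, and of the relatives Gbp10 and Gbp11 as squares, in 6 comparisons (panels), with filled red symbols for an adjusted p under 0.05 in edgeR. Gbp3 lies to the right and Gbp10 to the left of 0 in the 3 panels against WT CD4 SP cells, and no symbol is filled in the panel of RKF+ against RKF- CD4+CD8+ cells.

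The log2 difference between RKF- CD4+CD8+ and RKF- CD8 SP cells was then set against that between the 2 wild-type groups, CD4 SP minus CD8 SP. The first minus the second passed the test for 3 of the 9 genes, against 14.3% of all genes. Gbp3 gave 1.26 ± 0.23 (adjusted p = 0.0024), Gbp4 -0.86 ± 0.16 (adjusted p = 0.00267) and Gbp8 -0.77 ± 0.23 (adjusted p = 0.036). For Gbp3 the mean was 35.5 ± 2.59 CPM in RKF- CD4+CD8+ and 27.7 ± 4.88 CPM in RKF- CD8 SP cells, but 13.5 ± 0.493 CPM in WT CD4 SP and 25.3 ± 4.005 CPM in WT CD8 SP cells (SD, n = 3 each). Gbp4 ran the other way, with 385 ± 41.5 CPM in RKF- CD4+CD8+ and 458 ± 52.8 CPM in RKF- CD8 SP cells, but 564 ± 14.4 CPM in WT CD4 SP and 371 ± 25.5 CPM in WT CD8 SP cells. The wild-type groups differ in their hosts as well as in their lineage, and these cannot be told apart. The summed level of 8 regulatory T cell markers was highest, like Gbp4, in WT CD4 SP cells, but the rest of the order differed. RKF- CD8 SP cells were below both CD4+CD8+ groups in this sum and above them in mean Gbp4. The sum was 513 to 735 CPM in RKF+ CD4+CD8+, 505 to 601 CPM in RKF- CD4+CD8+, 242 to 322 CPM in RKF- CD8 SP, 784 to 975 CPM in WT CD4 SP and 206 to 267 CPM in WT CD8 SP libraries, with all 8 markers read in every group. Foxp3, the defining factor of these cells, was at 22.4 to 50.1 CPM in RKF- CD4+CD8+ libraries, at most 8.95 CPM in the other 6 mutant libraries, 31.5 to 53.7 CPM in WT CD4 SP and at most 2.68 CPM in WT CD8 SP libraries. The summed level of 8 NK and innate-like T cell markers was lowest, like Gbp3, in WT CD4 SP cells, though it overlapped that of RKF- CD8 SP cells. It was highest in WT CD8 SP cells, where mean Gbp3 was below that of the mutant groups. This sum was 496 to 532 CPM in RKF+ CD4+CD8+, 353 to 465 CPM in RKF- CD4+CD8+, 174 to 217 CPM in RKF- CD8 SP, 112 to 188 CPM in WT CD4 SP and 696 to 719 CPM in WT CD8 SP libraries. Most of it was Il2rb, and the NK marker Ncr1 was at 0 in all libraries. The part of these cells in the results was not tested.

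The wider interferon pathway was described to place the family. Of the 6 interferon ligand genes looked at, among them Ifng, none passed the filter on low counts, and their summed level was at most 0.183 CPM in any library. The counts of the lists that follow stand beside the shares of all genes tested that were called. These were 7.26% in RKF+ CD4+CD8+, 17.6% in RKF- CD4+CD8+ and 17.7% in RKF- CD8 SP cells against WT CD4 SP cells. They were 11.1%, 12.1% and 18.4% in the same 3 mutant groups against WT CD8 SP cells, and 18.0% between the wild-type groups. Of 16 receptor and signalling genes, 5 were higher and 1 lower in WT CD4 SP than in WT CD8 SP cells, with a median log2 fold change of 0.23 beside -0.03 over all genes. Irf9, a transcription factor of the type I interferon response, was at 509 ± 46.6 CPM in WT CD4 SP and 236 ± 2.40 CPM in WT CD8 SP cells (1.11 ± 0.12, adjusted p = 2.44e-05). Ifngr2, a chain of the interferon gamma receptor (0.72 ± 0.11, adjusted p = 0.00053) and Stat2, a transcription factor of the type I interferon response (0.86 ± 0.14, adjusted p = 0.000728), were higher there too.

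Receptor and signalling genes moved both ways in the mutant groups. Against WT CD4 SP cells 2 of these 16 genes rose and 3 fell in RKF+ CD4+CD8+ cells, 2 rose and 4 fell in RKF- CD4+CD8+ cells, and 2 rose and 6 fell in RKF- CD8 SP cells. The median log2 fold change was -0.04 in RKF+ CD4+CD8+ cells (0.01 over all genes), -0.17 in RKF- CD4+CD8+ cells (0.01) and -0.16 in RKF- CD8 SP cells (-0.0041). Set against WT CD8 SP cells instead, more rose than fell. There 4 rose and 1 fell in RKF+ CD4+CD8+ cells (median 0.29), 4 rose and 1 fell in RKF- CD4+CD8+ cells (median 0.19) and 5 rose and 1 fell in RKF- CD8 SP cells (median 0.21), beside all-gene medians of -0.01, -0.01 and 2.54e-05. Socs1, a feedback inhibitor of interferon signalling, rose in RKF+ CD4+CD8+ cells, with 155 ± 12.3 CPM there and 86.0 ± 8.67 CPM in WT CD4 SP cells (0.85 ± 0.11, adjusted p = 0.00012), and in RKF- CD8 SP cells, with 211 ± 15.1 CPM (1.30 ± 0.11, adjusted p = 1.38e-06). Socs3, a related inhibitor, rose in RKF- CD8 SP cells by 2.27 ± 0.22 (adjusted p = 7.84e-06). Irf9 fell in all 3 groups, by 0.52 ± 0.12 on the log2 scale in RKF+ CD4+CD8+ cells (adjusted p = 0.0175), 0.70 ± 0.12 in RKF- CD4+CD8+ cells (adjusted p = 0.00197) and 0.60 ± 0.12 in RKF- CD8 SP cells (adjusted p = 0.00385). Irf8, a factor of myeloid and B cells that also acts in T cells, had log2 fold changes of -1.56 ± 0.33 in RKF+ CD4+CD8+ cells (adjusted p = 0.00863), -1.16 ± 0.32 in RKF- CD4+CD8+ cells (adjusted p = 0.0255) and -1.82 ± 0.33 in RKF- CD8 SP cells (adjusted p = 0.00172). Irf1, a transcription factor that binds Gbp promoters, rose in RKF- CD4+CD8+ cells by 0.31 ± 0.09 (adjusted p = 0.0265). Between RKF+ and RKF- CD4+CD8+ cells 1 of the 16 genes passed the test, Socs1, which was higher in RKF+ cells (0.60 ± 0.11, adjusted p = 0.0142).

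Other interferon-inducible GTPases, 12 in all, with Gbp10 and Gbp11 among them, were higher in WT CD4 SP than in WT CD8 SP cells for 7 genes and lower for 0, with a median log2 fold change of 0.60 (-0.03 over all genes). Iigp1, an immunity-related GTPase that attacks parasite vacuoles, led them, with 88.5, 94.1 and 109 CPM in WT CD4 SP and 12.2, 22.6 and 23.3 CPM in WT CD8 SP cells (2.33 ± 0.22, adjusted p = 5.19e-06). Against WT CD4 SP cells 0 rose and 2 fell in RKF+ CD4+CD8+ cells, 0 rose and 5 fell in RKF- CD4+CD8+ cells, and 2 rose and 6 fell in RKF- CD8 SP cells, with a median log2 fold change of -0.30 in RKF+ CD4+CD8+, -0.58 in RKF- CD4+CD8+ and -0.39 in RKF- CD8 SP cells, beside the all-gene medians given above. With WT CD8 SP cells as the comparison, 3 rose and 0 fell in RKF+ CD4+CD8+ cells (median 0.31), 2 rose and 0 fell in RKF- CD4+CD8+ cells (median 0.11), and 1 rose and 1 fell in RKF- CD8 SP cells (median 0.19). Iigp1 had 37.8, 54.3 and 53.5 CPM in RKF+ CD4+CD8+, 45.7, 38.0 and 40.6 CPM in RKF- CD4+CD8+ and 29.8, 27.1 and 30.5 CPM in RKF- CD8 SP cells, all below every WT CD4 SP library. Igtp and Irgm2, immunity-related GTPases of the same kind, fell in RKF- CD4+CD8+ cells, by 0.78 ± 0.16 (adjusted p = 0.00598) and 0.59 ± 0.15 (adjusted p = 0.0139) on the log2 scale. Mx2, an antiviral GTPase, was the gene of this list called between RKF+ (20.7 ± 4.76 CPM) and RKF- CD4+CD8+ cells (7.25 ± 3.10 CPM), at 1.51 ± 0.31 (adjusted p = 0.0315). Gbp2b was higher than in WT CD4 SP cells in both CD4+CD8+ groups, while the called genes of this list were lower there.

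Of 28 other interferon-stimulated genes, 27 passed the filter on low counts. In WT CD4 SP over WT CD8 SP cells 13 were higher and 1 lower, with a median log2 fold change of 0.60 (-0.03 over all genes), led by Ifih1, an RNA sensor (1.22 ± 0.15, adjusted p = 7.32e-05), and Usp18, which restrains interferon signalling (1.64 ± 0.21, adjusted p = 8.43e-05). Against WT CD4 SP cells 0 rose in any mutant group, and 7 fell in RKF+ CD4+CD8+ cells, 14 in RKF- CD4+CD8+ cells and 11 in RKF- CD8 SP cells. The median log2 fold change of the 27 was -0.40 in RKF+ CD4+CD8+ cells (0.01 over all genes), -0.59 in RKF- CD4+CD8+ cells (0.01) and -0.59 in RKF- CD8 SP cells (-0.0041). With WT CD8 SP cells as the comparison, 4 rose and 0 fell in RKF+ CD4+CD8+ cells (median 0.01), 3 rose and 1 fell in RKF- CD4+CD8+ cells (median 0.0046) and 3 rose and 1 fell in RKF- CD8 SP cells (median -0.06). Oasl2, an antiviral gene, was at 17.0 ± 3.42 CPM in RKF+ CD4+CD8+, 14.7 ± 5.32 CPM in RKF- CD4+CD8+ and 17.0 ± 5.40 CPM in RKF- CD8 SP cells, against 59.4 ± 11.2 CPM in WT CD4 SP cells, and fell in all 3 comparisons (highest adjusted p = 0.0015). Ifi27l2a fell in the same 3 comparisons, by 1.17 ± 0.21 on the log2 scale in RKF+ CD4+CD8+ cells (adjusted p = 0.00217), 1.18 ± 0.21 in RKF- CD4+CD8+ cells (adjusted p = 0.00183) and 1.67 ± 0.21 in RKF- CD8 SP cells (adjusted p = 7.55e-05). Of 8 inflammasome and caspase genes linked to Gbp function 5 passed the filter. Pycard, the adaptor ASC, fell against WT CD4 SP cells in all 3 mutant groups, by 0.61 ± 0.10 on the log2 scale in RKF+ CD4+CD8+ cells (adjusted p = 0.00135), 0.55 ± 0.10 in RKF- CD4+CD8+ cells (adjusted p = 0.00265) and 0.66 ± 0.10 in RKF- CD8 SP cells (adjusted p = 0.000433). Aim2, a DNA sensor, rose in RKF+ (1.28 ± 0.25, adjusted p = 0.00554) and RKF- CD4+CD8+ cells (1.02 ± 0.25, adjusted p = 0.014).

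**Figure D4:**
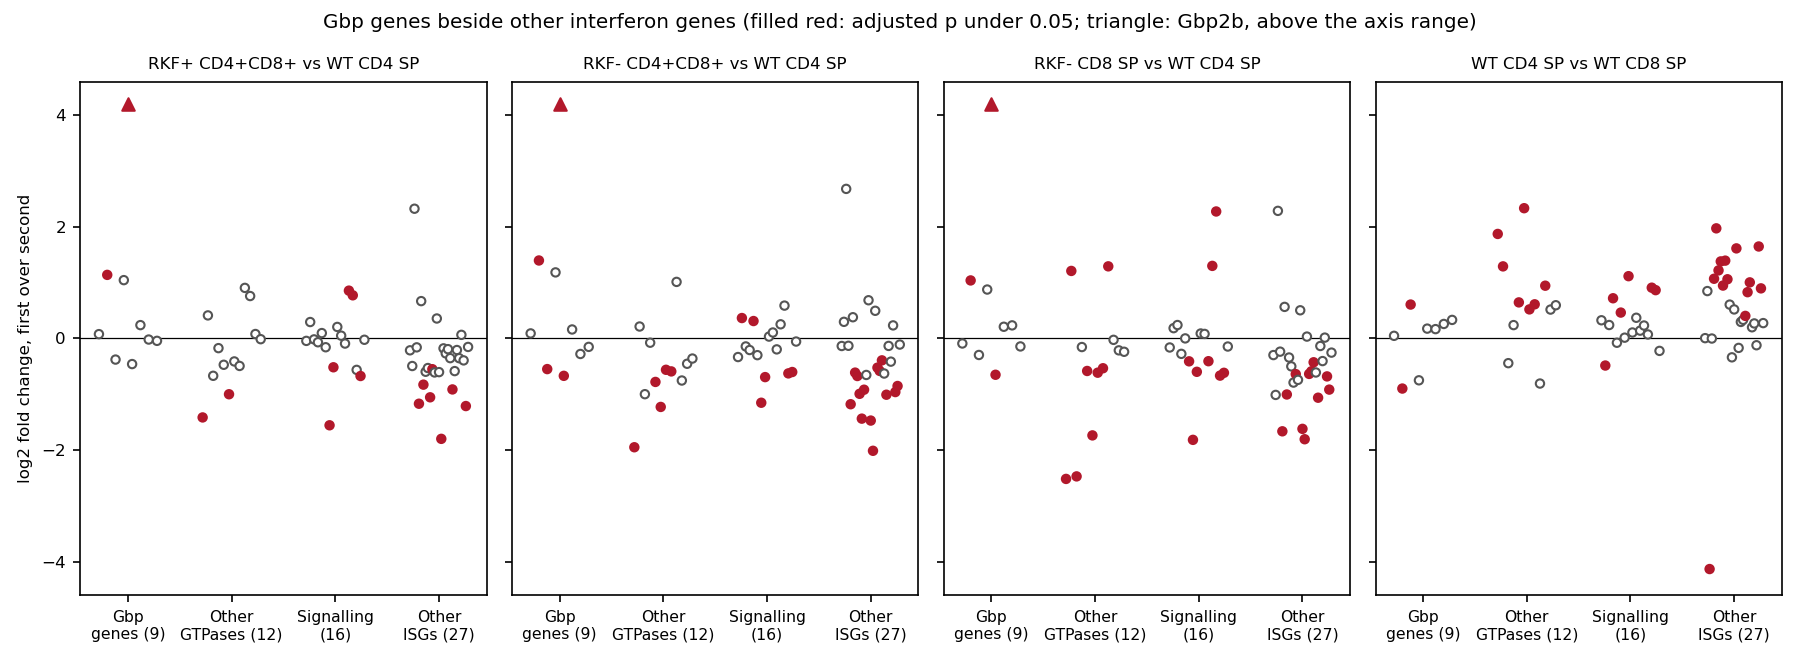
Log2 fold change (y axis) of each gene of the Gbp family, of 12 other interferon-inducible GTPases, of 16 interferon receptor and signalling genes and of 27 other interferon-stimulated genes (ISGs), listed along the x axis, in 4 comparisons (panels), with filled red points for an adjusted p under 0.05 in edgeR. The triangle marks Gbp2b, which lies above the axis range in the 3 mutant panels; it is not drawn in the wild-type panel, where it has 0 reads and 1 read. Called points of the last list lie below 0 in the 3 mutant panels, and 13 of 14 lie above 0 between the wild-type groups.

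Genes with a pattern like that of Gbp2b were ranked over the libraries. The ranking drew on 10673 genes with a mean log2 CPM of at least 1. Left out of it were the Gbp genes described here, antigen receptor segments, predicted models (Gm and Rik names), Xist and Y-linked genes. Among the rest, the highest Pearson correlations of log2(CPM + 1) with Gbp2b over the 15 libraries were those of Tdg-ps2 (r = 0.996), Hdac1-ps (0.995), Rab35 (0.989), Hmga1b (0.989) and Gpr137b (0.984). These libraries fall into a mutant and a wild-type cluster, so the values over all 15 describe that split, and within the 9 mutant libraries r was 0.869, 0.419, 0.414, 0.874 and 0.556 in the same order. Tdg-ps2 was at 9.76 ± 1.23 CPM in RKF+ CD4+CD8+, 16.7 ± 0.700 CPM in RKF- CD4+CD8+ and 16.3 ± 2.34 CPM in RKF- CD8 SP cells, against 0.0747 ± 0.0289 CPM in WT CD4 SP and 0.124 ± 0.0231 CPM in WT CD8 SP cells. Tdg-ps2 and Hdac1-ps are pseudogenes and Hmga1b is a near copy of another gene, so their counts are uncertain, since reads may be split with their parent genes. Rab35, a small GTPase of endosome recycling, was at 65.4 ± 4.17 CPM in RKF+ CD4+CD8+, 70.2 ± 7.56 CPM in RKF- CD4+CD8+ and 74.0 ± 8.93 CPM in RKF- CD8 SP cells, against 19.9 ± 1.82 CPM in WT CD4 SP and 20.6 ± 2.70 CPM in WT CD8 SP cells. It was thus read in wild-type cells, where Gbp2b was not. Gpr137b, which encodes a lysosomal membrane protein, was at 8.03 ± 3.04 CPM in RKF+ CD4+CD8+, 15.5 ± 1.37 CPM in RKF- CD4+CD8+ and 14.7 ± 3.32 CPM in RKF- CD8 SP cells, against 0.0581 ± 0.0214 CPM in WT CD4 SP and 0.0400 ± 0.0361 CPM in WT CD8 SP cells. The lowest correlations were those of Zbtb8a (r = -0.976), Ctse (-0.974), Hmgn2 (-0.961), Lair1 (-0.961) and Mcub (-0.959). Ctse, the protease cathepsin E, was at 71.1 ± 5.52 CPM in RKF+ CD4+CD8+, 59.4 ± 11.05 CPM in RKF- CD4+CD8+ and 60.7 ± 13.01 CPM in RKF- CD8 SP cells, against 497 ± 54.7 CPM in WT CD4 SP and 290.5 ± 18.5 CPM in WT CD8 SP cells. Within the family, r with Gbp2b over the 9 mutant libraries ran from -0.540 for Gbp9 to 0.486 for Gbp2.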

How the data were processed

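RNA was extracted from sorted thymocytes with the RNeasy Plus Micro kit (Qiagen), made into libraries with the SMARTer Ultra Low Input kit (Takara) and sequenced as 101-base pairs on a NovaSeq, per the labels' protocols. Per the submitters' processing notes, the tools were bcl2fastq 2.17, Trimmomatic, STAR, HTSeq and DESeq2, with build mm39. For the annotation and strand setting, the sources used here give nothing. The authors deposited counts per gene, which were used for all tests. The 15 files of single samples equal the deposited count table. The authors also deposited a table of CPM values relative to each library's gene total, and 100% of these gave back whole reads within 0.01. The recovered reads equal the counts, so the count test on them, added after the data were seen, repeats the main one and is not counted among the alternatives. In each table, columns that match no label (3 of them) were not used. The 5 summary lines of reads not assigned to a gene, 16.7% to 18.8% of reads by group mean, were left out. They include reads outside annotated genes, 5.09% to 11.2% per library, and reads without a unique alignment, 3.67% to 4.43%.

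The CPM values in the text are not those deposited but were computed from the authors' counts, with library sizes scaled by TMM. edgeR 4.0.16 (R 4.3.3) was fitted to the 15 libraries with a mean per group, on 16550 of 53762 genes left by filterByExpr (minimum count 10, minimum total 15). P-values were adjusted by the Benjamini-Hochberg method over all these genes, and the test was checked on simulated counts. Alternatives were other scaling (RLE), no filter, DESeq2 1.42.0, limma 3.58.1 on log2(CPM + 1) or log2(CPM + 0.1), fits of the compared groups alone, a replicate block, leaving out or adding a term for the 5 libraries numbered 1, and leaving out each library. Precision rests on 37311823 to 48607260 gene counts per library. Replicates differed beyond sampling noise (chi-square over degrees of freedom 11.8 to 236), so none was counted as a repeat. Each same-numbered pair's deviations correlated above 0.1 for WT CD8 SP with RKF- CD4+CD8+ (r = 0.307, 0.112 and 0.104) and with RKF+ CD4+CD8+ libraries (0.386, 0.184 and 0.185), and for no other pair of groups. This does not settle whether the numbers pair libraries. Of the 6 libraries of these groups, 3 and 4 correlated best with their own number. All 6 did so for WT CD4 SP with RKF- CD8 SP, where r was at most 0.097. Promoter sequences are RefSeq's. Exon lengths and shared stretches are from GENCODE vM21, an annotation of another build, used for lengths and letters only.

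The 9 genes were given. Beyond them, the text names the 5 genes most and the 5 least correlated with Gbp2b among those left in the ranking, and the 3 protein-coding genes on each side of each cluster. It also names up to 4 genes of each pathway list with the smallest adjusted p in the comparison described, which may also be given in the other comparisons. The members, the lists and the tests were chosen with earlier results of these data known.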

Additional observations from a re-analysis of the deposited data

Results flagged for a closer look

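In 3 of the 9 genes the log2 difference between RKF- CD4+CD8+ and RKF- CD8 SP cells departed from the difference between the WT CD4 SP and WT CD8 SP groups in a test of this difference itself (edgeR, adjusted over all genes tested). The departure was 1.26 for Gbp3, -0.86 for Gbp4 and -0.77 for Gbp8. For Gbp3 and Gbp4 it passed the test in each of 21 alternatives. For Gbp8 it passed in 14 of 21. Gbp2b was left out of this test, because it had 0 and 1 reads in the wild-type groups.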

How the results depend on the processing

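This summary covers 45 results on single Gbp genes. They are those called in the main or any alternative analysis, and all those of Gbp2b that involve a mutant group in a pair of groups. Results of other genes that were never called were left out, so their changes of sign are not counted. Of the 45, 18 kept their direction and their side of the threshold in every alternative. Of the 699 values of these 45 results, 622 did so, 52 came past the threshold, 23 fell short of it and 2 changed sign. The sign changed for Gbp2b in RKF- CD4+CD8+ against RKF- CD8 SP cells, never called, at -0.036 without RKF- CD8 SP replicate 1 and -0.01 without RKF- CD4+CD8+ replicate 2, with values up to 0.16 without other libraries. The number of Gbp genes called in RKF+ CD4+CD8+ against WT CD4 SP cells was 2, but 4 with RLE scaling, with DESeq2, with limma at either pseudocount and with a term for the libraries numbered 1, and 2 to 3 without single libraries. In RKF- CD4+CD8+ against RKF- CD8 SP cells it was 0, but 1 with DESeq2. In RKF- CD8 SP against WT CD8 SP cells it was 3, but 5 in a fit of these groups alone and with limma at either pseudocount, and 1 to 2 without single libraries. Without the 5 libraries numbered 1 it was 2 (not 0) in RKF+ against RKF- CD4+CD8+ cells, 5 (not 3) in RKF- CD8 SP against WT CD4 SP cells, and 6 (not 3) over the 3 pairs of groups outside the main comparisons. Over those pairs it was 5 in fits of the compared groups alone and 2 to 5 without single libraries. Without single libraries the number was 3 to 4 in RKF- CD8 SP against WT CD4 SP cells, 4 to 5 in RKF- CD4+CD8+ against WT CD4 SP cells, 2 to 3 in WT CD4 SP against WT CD8 SP cells, and 2 to 4 for the difference of differences. Calls over all genes moved with some settings too. In RKF+ CD4+CD8+ against WT CD4 SP cells they were 1202 of 16550 in the main fit, 1206 with RLE scaling and 1946 with DESeq2. For RKF- CD8 SP against WT CD8 SP cells they were 3045 of 16550, and 3857 of 14741 in a fit of these groups alone. The cause of the changes in the number of Gbp genes called was not tested. With the replicate block, Gbp2b gave -0.55 in RKF+ against RKF- CD4+CD8+ cells, and no call of a Gbp gene changed. Depth sets how low Gbp2b can be placed in WT CD4 SP cells, at 0.0221 CPM.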

Other observations

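A rule chosen after the values were seen asked which genes, like Gbp2b, had at most 10 reads over the 6 wild-type libraries and at least 50 reads in each of the 9 mutant libraries. It found 5 genes, namely Gbp2b, Gm10503, Gm12666, Gm18562 and Ifi44l, and 0 genes in the opposite direction. Ifi44l, an interferon-stimulated gene, was at 7.85 ± 1.25 CPM in RKF+ CD4+CD8+ cells, 4.51 ± 0.391 CPM in RKF- CD4+CD8+ cells and 5.37 ± 1.82 CPM in RKF- CD8 SP cells (SD, n = 3 each), against 1 read over the 3 WT CD4 SP libraries and 0 reads in WT CD8 SP libraries. The 9 Gbp genes together summed to 1560 ± 203 CPM in RKF+ CD4+CD8+, 1464 ± 100 CPM in RKF- CD4+CD8+ and 1576 ± 179 CPM in RKF- CD8 SP cells, against 1603 ± 68.8 CPM in WT CD4 SP and 1281 ± 93.3 CPM in WT CD8 SP cells, sums that depend on the length of each transcript.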
